A study of Mus musculus with 18 samples.

Results

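The 38 genes described here are imprinted genes of the mouse, named as a list of symbols and found in both gene tables by their Entrez identifiers, which gave 38 of the 24100 gene rows of each table. An imprinted gene is transcribed mainly from the chromosome inherited from 1 parent. In most cases, though not in all, this is because a control region near it was methylated in the egg or in the sperm. Most imprinted genes lie in clusters that share such a control region, and many of them act on fetal growth, the placenta and metabolism. ATRX is a chromatin remodeler that works with the chaperone DAXX to place histone H3.3 in heterochromatin, and the allele of an imprinting control region that carries DNA methylation and H3K9me3 is a known place where ATRX is found. The counts add up both parental alleles, so that a level says nothing about which allele it came from.

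Bulk RNA-seq was performed on C3H/10T1/2 cells, a mouse mesenchymal progenitor cell (MPC) line, in normal culture medium without differentiation treatment. The *Atrx* WT line is an isogenic control that went through transfection with the Cas9 vector without an sgRNA. The *Atrx* knockout (KO) lines are 1 clone made with the guide sg5 and 1 clone made with the guide sg6, each grown from a GFP-sorted cell. The paper reported loss of ATRX protein in these lines by immunoblot and immunofluorescence. RNA of each line was measured in 3 polyA-selected and 3 rRNA-depleted libraries, 18 libraries in all. All results with n = 3 therefore count libraries of a single line, p-values cover only the spread between these libraries, and KO cannot be told apart from other differences between the lines. Both KO contrasts use the same WT libraries. In bulk RNA, fewer cells of a type and less RNA per cell cannot be told apart.

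Depth differed between the lines in polyA RNA, with totals of 27544833 to 80772108 counts for WT libraries, 161036799 to 235346363 for sg5 libraries and 58918732 to 71896907 for sg6 libraries. The 9 rRNA-depleted libraries held 20135336 to 33187136 counts each. Levels are given as CPM, counts scaled to library size after TMM normalization, and changes as log2 fold changes ± standard error (SE). *Atrx* had 300.3 ± 26.0 CPM in the WT line and fell to 127 ± 12.2 CPM in sg5 cells and 131 ± 9.68 CPM in sg6 cells (SD, n = 3, polyA), with log2 fold changes of -1.24 ± 0.10 and -1.20 ± 0.10, and with -1.39 ± 0.21 and -1.31 ± 0.20 in rRNA-depleted RNA. Of 10 mesenchymal markers, *Nt5e* stayed below 0.5 CPM in every library and *Thy1* differed between the lines, with 0.803 to 1.1 CPM for WT libraries, 0.246 to 0.370 for sg5 libraries and 119 to 154 for sg6 libraries (polyA). *Ly6a* was called higher in sg6 (1.21 ± 0.28, adjusted p = 0.0102), and *Pdgfra* was lower in both clones below the fold threshold (-0.61 ± 0.16, adjusted p = 0.0213, and -0.92 ± 0.16, adjusted p = 0.00249). Below the same threshold, *Itgb1* was higher in both clones (0.68 ± 0.10, adjusted p = 0.00141, and 0.71 ± 0.10, adjusted p = 0.000937). So was *Pdgfrb* (0.29 ± 0.09, adjusted p = 0.0346, and 0.41 ± 0.09, adjusted p = 0.00686, polyA). The summed level of the 10 markers was 17877 to 19705 CPM in the WT libraries, 19818 to 20675 CPM in the sg5 libraries and 24565 to 27260 CPM in the sg6 libraries (polyA), and 4701 to 5968, 7347 to 9781 and 7886 to 9851 CPM in that order in rRNA-depleted RNA. In polyA RNA most of this sum came from *Vim*, *Col1a1* and *Col1a2*, with means of 4899, 5719 and 6229 CPM in the WT line. In sg6 these were higher below the fold threshold (0.64 ± 0.13, adjusted p = 0.00547, 0.45 ± 0.14, adjusted p = 0.0417, and 0.36 ± 0.10, adjusted p = 0.0228, in that order). In sg5 none of them had an adjusted p below 0.05. The 9 markers of epithelial, haematopoietic and endothelial cells summed to 8.58 to 9.54 CPM in the WT libraries, 5.2 to 5.88 CPM in the sg5 libraries and 4.20 to 5.22 CPM in the sg6 libraries, and 7 of the 9, *Epcam* and *Ptprc* among them, were below 0.5 CPM in every polyA library. Of these 9, *Cdh1* was at 3.86 ± 1.20 CPM in the WT line and fell in both clones, to 1.24 ± 0.376 CPM and 0.412 ± 0.148 CPM (sg5 and sg6, SD, n = 3). Their part in the results on imprinted genes was not tested.

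In polyA RNA, *Peg3*, *Plagl1*, *H19* and *Igf2* fell and *Peg10*, *Sgce* and *Peg13* rose in both clones, whereas *Ndn* rose in sg5 and fell in sg6. *Grb10* rose past the threshold in sg5 alone, and *Dlk1* fell and *Mest* rose in sg6 alone. A gene is called changed where its log2 fold change is beyond 1 with an adjusted p below 0.05 (edgeR quasi-likelihood test, Benjamini-Hochberg over all features tested). Of the 38 genes, 30 passed the filter on low counts in polyA libraries and 24 in rRNA-depleted libraries. The sg5 clone had 5 genes higher and 4 lower than WT among those 30, in a contrast where 10.1% of all tested genes were changed, 3.18% higher and 6.96% lower. The sg6 clone had 4 higher and 6 lower, and of all tested genes 11.2% were changed, 3.64% higher and 7.54% lower. Changed in both clones in the same direction were 3 higher and 4 lower of the 30, and 7.66% of all tested genes, 2.18% higher and 5.48% lower. The median log2 fold change of the 30 genes was 0.07 in sg5 and -0.18 in sg6, beside medians of -0.0024 and -0.0061 over all 15480 tested genes.

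rRNA-depleted libraries gave fewer calls among fewer tested genes. There, 8 of 24 genes were changed in sg5 (5 higher, 3 lower) and 6 of 24 in sg6 (3 higher, 3 lower). Of all 13303 tested genes, 7.35% were changed in sg5 (3.04% higher, 4.31% lower) and 5.75% in sg6 (2.16% higher, 3.59% lower). In both clones 5 were changed in the same direction, namely *Peg10*, *Sgce*, *Peg13*, *Peg3* and *Plagl1*, where 3.98% of all tested genes were (1.36% higher, 2.62% lower). All 8 genes called in sg5 in polyA RNA and tested in both kinds of library were called in both, each in the same direction. In sg6, 6 of the 9 such genes were called in both kinds, and *Dlk1*, *H19* and *Mest* passed in polyA RNA alone. By the parent whose allele is listed as active, 6 of 19 tested paternally expressed genes and 1 of 10 maternally expressed genes were changed in both clones in polyA RNA, and 5 of 16 and 0 of 7 in rRNA-depleted RNA. Which allele was active in these cells was not measured, and some of these listings hold only in certain tissues. At the level of a single clone in rRNA-depleted RNA, 2 of the 7 maternally expressed genes, *Grb10* and *H19*, and 6 of the 16 paternally expressed genes were called in sg5. In sg6 these were 0 of 7 and 6 of 16. In polyA RNA they were 2 of 10 and 7 of 19 in sg5, and 1 of 10 and 9 of 19 in sg6. The shares of all tested genes in each contrast are given above. The plot of changes by cluster shows every tested gene of the 38.

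**Figure D1:**
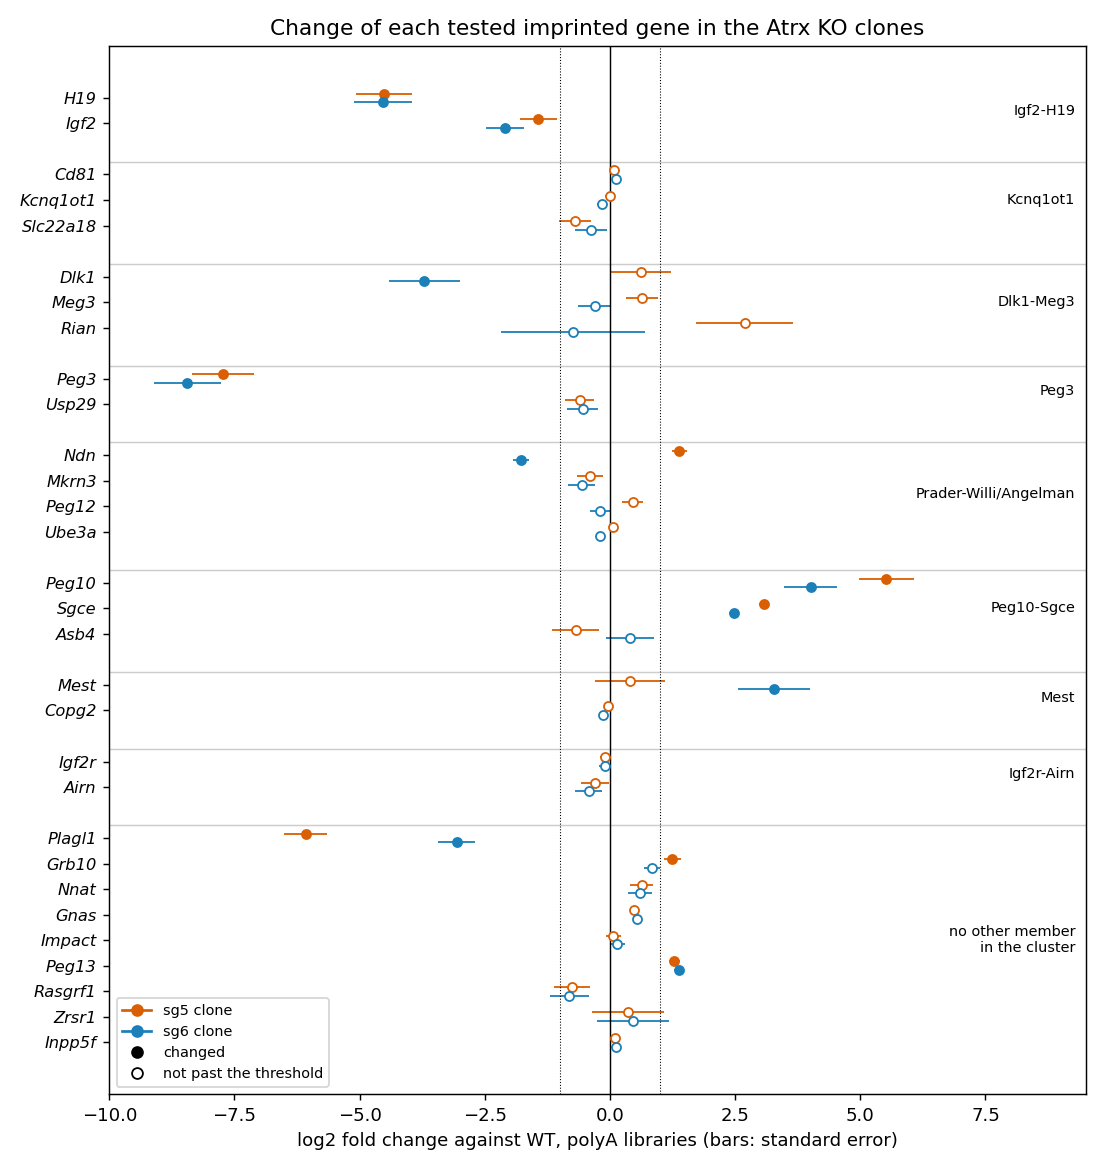
Log2 fold change against WT (x axis) of the 30 imprinted genes tested in polyA libraries, ordered by cluster (y axis), for the sg5 clone (orange) and the sg6 clone (blue). Bars are SE, filled points are changed and open points are not, and dotted lines mark a log2 fold change of 1 in either direction. *Peg3* lies farthest to the left at -7.73 and -8.44, *Peg10* farthest to the right at 5.52 and 4.01, and *Ndn* lies on opposite sides of 0 in the clones.

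Promoter windows of 300 bases, from 250 before to 50 after a transcript's start (RefSeq, GRCm38.p6), were given for 32 of the 38 genes, in 47 windows, and not for *H19*, *Cdkn1c*, *Peg10*, *Sgce*, *Impact* and *Peg13*. The windows are shown for a gene that fell in both clones and shares its promoter with a divergent neighbour (*Peg3*), the gene that fell by different amounts in the clones (*Plagl1*), the gene that moved in opposite directions (*Ndn*) and a gene called in sg6 alone (*Mest*, the window of a downstream start). These 4 were chosen after their values were seen. Capitals mark the letters TGCCGC or, on the other strand, GCGGCA, the core of the motif of ZFP57, a zinc finger protein that keeps imprints by binding the methylated allele.
Peg3, minus strand, chr7:6730370-6730669: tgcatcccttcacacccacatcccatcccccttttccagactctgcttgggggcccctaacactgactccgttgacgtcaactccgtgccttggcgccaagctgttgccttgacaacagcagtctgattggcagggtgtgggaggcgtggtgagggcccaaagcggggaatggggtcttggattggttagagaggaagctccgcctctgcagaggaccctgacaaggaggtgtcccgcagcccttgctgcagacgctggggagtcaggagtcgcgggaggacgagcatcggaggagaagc
Plagl1, plus strand, chr10:13090582-13090881: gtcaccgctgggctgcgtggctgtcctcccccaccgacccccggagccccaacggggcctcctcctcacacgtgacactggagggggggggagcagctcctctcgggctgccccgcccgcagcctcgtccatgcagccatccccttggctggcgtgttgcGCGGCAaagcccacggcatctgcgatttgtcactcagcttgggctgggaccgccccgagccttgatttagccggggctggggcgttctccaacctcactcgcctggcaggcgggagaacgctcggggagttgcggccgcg
Ndn, plus strand, chr7:62348027-62348326: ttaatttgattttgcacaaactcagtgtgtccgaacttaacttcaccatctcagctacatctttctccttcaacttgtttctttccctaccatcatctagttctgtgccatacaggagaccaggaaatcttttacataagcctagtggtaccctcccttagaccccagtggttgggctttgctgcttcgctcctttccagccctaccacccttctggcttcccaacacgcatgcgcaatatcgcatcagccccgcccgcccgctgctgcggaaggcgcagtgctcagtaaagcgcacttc
Mest, plus strand, chr6:30737800-30738099: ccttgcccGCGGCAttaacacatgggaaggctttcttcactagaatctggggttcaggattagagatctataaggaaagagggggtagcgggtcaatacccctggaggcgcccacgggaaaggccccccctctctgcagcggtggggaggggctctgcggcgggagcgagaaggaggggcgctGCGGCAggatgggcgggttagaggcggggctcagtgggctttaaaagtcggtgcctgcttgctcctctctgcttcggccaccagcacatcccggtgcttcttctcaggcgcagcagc

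The *Plagl1* window holds the ZFP57 letters once and the *Mest* window 2 times, and the *Peg3* and *Ndn* windows do not hold them. On either strand these letters occur in 11 of the 47 windows of imprinted genes (23.4%), of 10 genes, namely *Copg2*, *Grb10*, *Igf2*, *Meg3*, *Mest*, *Nnat*, *Plagl1*, *Snrpn*, *Zdbf2* and *Zim1*, and in 11.6% of all 32851 windows. The median number of CpG dinucleotides was 14 in the windows of imprinted genes and 7 in all windows. The letters TGCCGC hold a CpG themselves, and the shares were not adjusted for CpG number. Windows of 1 gene can overlap and are then not independent. The *Mest* windows starting at 30737800 and 30737803 do so, and both hold the letters. GCCATNTT, the core of the YY1 motif, occurs in 2 of the 47 windows (4.26%, *Mkrn3* and *Ube3a*) and in 6.05% of all windows. Of 2 patterns written for the CTCF motif, the first was in a window of *Peg12* (2.13%) and in 0.225% of all windows, and the second in 0 of the 47 and in 0.0365% of all. All were searched on both strands, and overlap between the 4 patterns was allowed. A match is a run of letters and no measured binding, and the lack of one says only that these letters are not in this window.

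*H19*, a long noncoding RNA from the maternal allele, and *Igf2*, a growth factor gene active on the paternal allele, are neighbours on chromosome 7 and share a control region where CTCF binds the maternal copy. The RefSeq gene of *H19* spans Entrez 14955, chr7:142575530-142578146, minus strand, and that of *Igf2* Entrez 16002, chr7:142650768-142666816, minus strand (GRCm38.p6). Both fell in both clones in polyA RNA. *H19* had 11.2, 9.15 and 9.12 CPM in the WT polyA libraries, 0.840, 0.275 and 0.185 in sg5, and 0.399, 0.643 and 0.213 in sg6. All 6 KO libraries lay under the lowest WT library, and the clones overlapped. This was 22.8-fold lower in sg5 (log2 fold change -4.51 ± 0.56, adjusted p = 0.000468) and 23.3-fold lower in sg6 (-4.54 ± 0.58, adjusted p = 0.000504), with 0.03 ± 0.56 between the clones (adjusted p = 0.991). The sg5 fold was 42.1 without sg5 replicate 1, the sg5 library with the highest *H19* level.

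For *H19*, the sg6 clone looked different in rRNA-depleted RNA. WT libraries had 9.15, 4.24 and 4.62 CPM, sg5 libraries 0.423, 0.223 and 0.155, and sg6 libraries 2.63, 2.31 and 2.67. The sg6 libraries thus lay between WT and sg5 without overlap with either. *H19* was 21.7-fold lower in sg5 than in WT (-4.44 ± 0.43, adjusted p = 4.90e-05), and sg6 was at -1.24 ± 0.34 against WT, which did not pass (adjusted p = 0.0791). The clones differed from each other there (-3.21 ± 0.43, adjusted p = 0.00315). The sg6 contrast missed the threshold under 15 of its 20 alternative settings and passed under the others, with an adjusted p from 0.0246 with the replicate number as a block (-1.15) to 0.999999 with glmTreat, which tests against a log2 fold change of 1. The files do not give the strand setting of the counting, and *H19* shares 2.11% of its 31-base words with *Mir675*, the miRNA it hosts. The difference between the kinds of library itself was not tested, because their tables are counted and scaled separately.

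*Igf2* had 5.69, 3.95 and 5.23 CPM in WT, 2.85, 1.19 and 1.45 in sg5 and 1.61, 1.09 and 0.746 in sg6 (polyA). All 6 KO libraries were below the 3 WT libraries. The fall was 2.70-fold in sg5 (-1.43 ± 0.37, adjusted p = 0.0189) and 4.27-fold in sg6 (-2.09 ± 0.39, adjusted p = 0.00339), and the clones did not pass the test against each other (0.66 ± 0.37, adjusted p = 0.441). The sg5 call was lost without sg5 replicate 2 (adjusted p = 0.0641) or replicate 3 (adjusted p = 0.0680). *Igf2* shares 61.9% of its 31-base words with other annotated genes, *Gm49394* on the same strand among them, so reads could be split between them. It was not tested in rRNA-depleted RNA, where its highest count in a library was 13.

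The neighbouring Kcnq1ot1 cluster on chromosome 7, whose paternally expressed noncoding RNA *Kcnq1ot1* represses its neighbours on the same chromosome, had 3 of its 6 genes tested and 0 changed in either clone or kind of library. *Kcnq1ot1* was at 183 ± 22.6 CPM in the WT line, 183 ± 7.66 CPM in sg5 cells and 164 ± 9.10 CPM in sg6 cells (SD, n = 3, polyA). The log2 fold changes of *Kcnq1ot1*, *Cd81*, which encodes a tetraspanin, and *Slc22a18*, which encodes a transporter, lay between -0.69 and 0.12 in polyA RNA and between -0.89 and 0.25 in rRNA-depleted RNA. The cell cycle inhibitor gene *Cdkn1c*, the placental growth regulator gene *Phlda2* and the transcription factor gene *Ascl2* were near 0 in all lines, with at most 5 counts in any library.

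In the Dlk1-Meg3 cluster on chromosome 12, *Dlk1*, which encodes a transmembrane protein of preadipocytes that holds back adipogenesis, fell in sg6 and did not pass in sg5. It lies at Entrez 13386, chr12:109452485-109463336, plus strand. *Dlk1* had 11.5, 6.65 and 10.0 CPM in WT, 31.4, 6.07 and 5.81 in sg5 and 0.814, 0.498 and 0.835 in sg6 (polyA). Replicate 1 of sg5 was the highest of the 9 libraries, whereas the other sg5 libraries were below all WT libraries. The sg6 libraries were 13-fold lower than WT (-3.71 ± 0.71, adjusted p = 0.00400). The sg5 clone was at 0.63 ± 0.60 against WT (adjusted p = 0.480) and, without its replicate 1, at -0.66 (adjusted p = 0.113). Between the clones, *Dlk1* was higher in sg5 (4.33 ± 0.71, adjusted p = 0.00834). That difference fell to 3.05 without sg5 replicate 1 and missed the threshold without sg6 replicate 2 (adjusted p = 0.0520).

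*Dlk1* counts were low in rRNA-depleted RNA. WT libraries held 28, 18 and 23 counts, sg5 libraries 13, 29 and 7, and sg6 libraries 6, 2 and 7. All sg6 libraries lay below all WT libraries in CPM, but sg6 against WT did not pass (-1.97 ± 0.68, adjusted p = 0.190). *Meg3*, the maternally expressed noncoding RNA of the same cluster, had 1.43, 1.12 and 1.22 CPM in WT, 2.94, 1.18 and 1.76 in sg5 and 1.21, 0.916 and 0.888 in sg6 (polyA). These ranges overlapped, and neither clone passed (0.65 ± 0.32, adjusted p = 0.165, and -0.31 ± 0.33, adjusted p = 0.528). *Rian*, a further maternal noncoding RNA that hosts small nucleolar RNAs, was higher in the 3 sg5 libraries (1.02, 0.231 and 0.173 CPM) than in WT (0.0349, 0.103 and 0.0445 CPM) without passing (2.69 ± 0.97, adjusted p = 0.0675). *Mirg*, the miRNA host transcript, was not tested and had at most 34 counts in a library.

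*Peg3*, a paternally expressed zinc finger gene on chromosome 7, showed the largest change of the tested imprinted genes in either kind of library. It lies at Entrez 18616, chr7:6703892-6730462, minus strand. Its level was 122, 121 and 104 CPM in WT, 1.19, 0.209 and 0.271 in sg5 and 0.459, 0.289 and 0.231 in sg6 (polyA). The lowest WT library was far above the highest KO library, and the clones overlapped. *Peg3* was 212-fold lower in sg5 (-7.73 ± 0.61, adjusted p = 4.08e-05) and 347-fold lower in sg6 (-8.44 ± 0.67, adjusted p = 3.58e-05). Without sg5 replicate 1, which held 189 counts against 48 and 44 in the other sg5 libraries, the sg5 fold was 485.

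In rRNA-depleted RNA, *Peg3* had 853, 803 and 1194 counts in WT, 11, 0 and 0 in sg5 and 4, 0 and 1 in sg6. These counts correspond to 29.6 to 37.4 CPM in WT and at most 0.423 CPM in a KO library. The fitted falls were 209-fold in sg5 (-7.71 ± 0.63, adjusted p = 1.34e-05) and 452-fold in sg6 (-8.82 ± 0.70, adjusted p = 8.35e-06). Single libraries set these sizes. Without sg5 replicate 1 the remaining sg5 libraries were at 0, which gives a level at least 236-fold lower than WT at 3 counts per library, and without sg5 replicate 3 the fold was 133. In sg6 the fold was 1312 without replicate 1 and 290.4 without replicate 2.

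*Usp29*, a deubiquitinase family gene, starts 96 bases from *Peg3* on the opposite strand, and 263 bases of their promoter windows are shared, so that the *Peg3* window printed above is largely also the upstream sequence of *Usp29*. *Usp29* had 0.734, 0.767 and 0.645 CPM in WT, 0.423, 0.423 and 0.567 in sg5 and 0.325, 0.434 and 0.728 in sg6 (polyA). It did not pass in either clone, at -0.61 ± 0.29 in sg5 (adjusted p = 0.149) and -0.54 ± 0.30 in sg6 (adjusted p = 0.208). The difference between the changes of *Peg3* and *Usp29* was not tested, and *Usp29* counts were 21 to 67 in the WT libraries. In rRNA-depleted RNA, *Usp29* was not tested, with 7, 1 and 3 counts in WT, 2, 0 and 0 in sg5 and 0 in all sg6 libraries. *Zim1*, the maternally expressed zinc finger gene beside *Peg3*, had at most 8 counts in any library and was not tested.

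*Ndn* encodes necdin, a growth-restraining protein of the MAGE family, and belongs to the paternally expressed genes of the Prader-Willi region on chromosome 7. It was the only one of the 38 genes called in opposite directions in the clones, in both kinds of library. The gene, at Entrez 17984, chr7:62348277-62349928, plus strand, has no introns. Its polyA level was 9.92, 10.2 and 14.1 CPM in WT, 34.7, 26.5 and 28.3 in sg5 and 3.36, 3.44 and 3.14 in sg6. The lines did not overlap, with sg5 above and sg6 below WT. Against WT, *Ndn* was 2.62-fold higher in sg5 (1.39 ± 0.16, adjusted p = 0.000289) and 3.44-fold lower in sg6 (-1.78 ± 0.16, adjusted p = 7.72e-05). The clones differed by 3.17 ± 0.17 (adjusted p = 1.36e-05).

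rRNA-depleted *Ndn* levels had the same order, with 15.3, 12.2 and 13.5 CPM in WT, 49.3, 38 and 39.0 in sg5 and 4.74, 4.29 and 4.43 in sg6. The log2 fold changes were 1.62 ± 0.17 in sg5 (adjusted p = 8.04e-05) and -1.61 ± 0.17 in sg6 (adjusted p = 0.000124). None of the fits that left out 1 library changed these calls in either kind. The other tested imprinted genes of the list in this region were not called. *Mkrn3*, a ring finger gene, was at -0.39 ± 0.26 in sg5 and -0.57 ± 0.27 in sg6 (polyA). *Peg12*, a paternally expressed gene without introns, was at 0.46 ± 0.21 and -0.19 ± 0.21. The ubiquitin ligase gene *Ube3a*, listed as maternally expressed, was at 0.06 ± 0.07 and -0.19 ± 0.07 (polyA). In rRNA-depleted RNA *Mkrn3* in sg6 was at -1.09 ± 0.34 (adjusted p = 0.139), a change called in the blocked fit (-1.11, adjusted p = 0.0405). *Magel2* and *Snrpn* were not tested, with at most 23 and 22 counts in a polyA library. *Snrpn* had 6, 22 and 5 polyA counts in WT, 3, 0 and 4 in sg5 and 0 in the 3 sg6 libraries, and it shares 28.6% of its 31-base words with other genes, the overlapping *Snurf* among them.

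*Peg10*, a paternally expressed gene derived from a retrotransposon and needed in the placenta, and *Sgce*, which encodes the membrane protein epsilon-sarcoglycan, start 101 bases apart on opposite strands of chromosome 6. *Peg10* lies at Entrez 170676, chr6:4747306-4760517, plus strand, and *Sgce* at Entrez 20392, chr6:4674350-4747204, minus strand. Both rose in both clones. *Peg10* had 1.85, 1.19 and 0.867 CPM in WT, 32.1, 76.7 and 64.3 in sg5 and 10.1, 32.7 and 18.1 in sg6 (polyA). All KO libraries were above all WT libraries, with the highest sg6 library above the lowest sg5 library. *Peg10* rose 45.9-fold in sg5 (5.52 ± 0.55, adjusted p = 0.000150) and 16.1-fold in sg6 (4.01 ± 0.53, adjusted p = 0.000583). In rRNA-depleted RNA the values were 5.56 ± 0.61 (adjusted p = 0.000122) and 3.81 ± 0.60 (adjusted p = 0.00227), against 2, 15 and 9 counts in WT. Without WT replicate 2 these folds moved from 47.3 to 78.6 in sg5 and from 14.1 to 23.6 in sg6.

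*Sgce* had 4.68, 5.05 and 5.67 CPM in WT, 44.6, 40.8 and 44.9 in sg5 and 27.0, 28.2 and 30.9 in sg6 (polyA). The 3 lines were separate, in the order WT, sg6, sg5. It rose 8.44-fold in sg5 (3.08 ± 0.10, adjusted p = 6.05e-07) and 5.58-fold in sg6 (2.48 ± 0.10, adjusted p = 1.23e-06), and sg5 was above sg6 by 0.60 ± 0.09 (adjusted p = 0.00683), a size below the fold threshold. rRNA-depleted libraries gave 2.67, 1.70 and 2.76 CPM in WT, 48.0, 37.2 and 36.3 in sg5 and 30.9, 21.3 and 25.0 in sg6. There the rises were 17-fold (4.09 ± 0.24, adjusted p = 8.70e-07) and 10.8-fold (3.43 ± 0.23, adjusted p = 1.98e-06). *Asb4*, a maternally expressed gene of the same cluster, was at -0.68 ± 0.47 in sg5 and 0.40 ± 0.48 in sg6 and passed in neither (polyA).

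**Figure D2:**
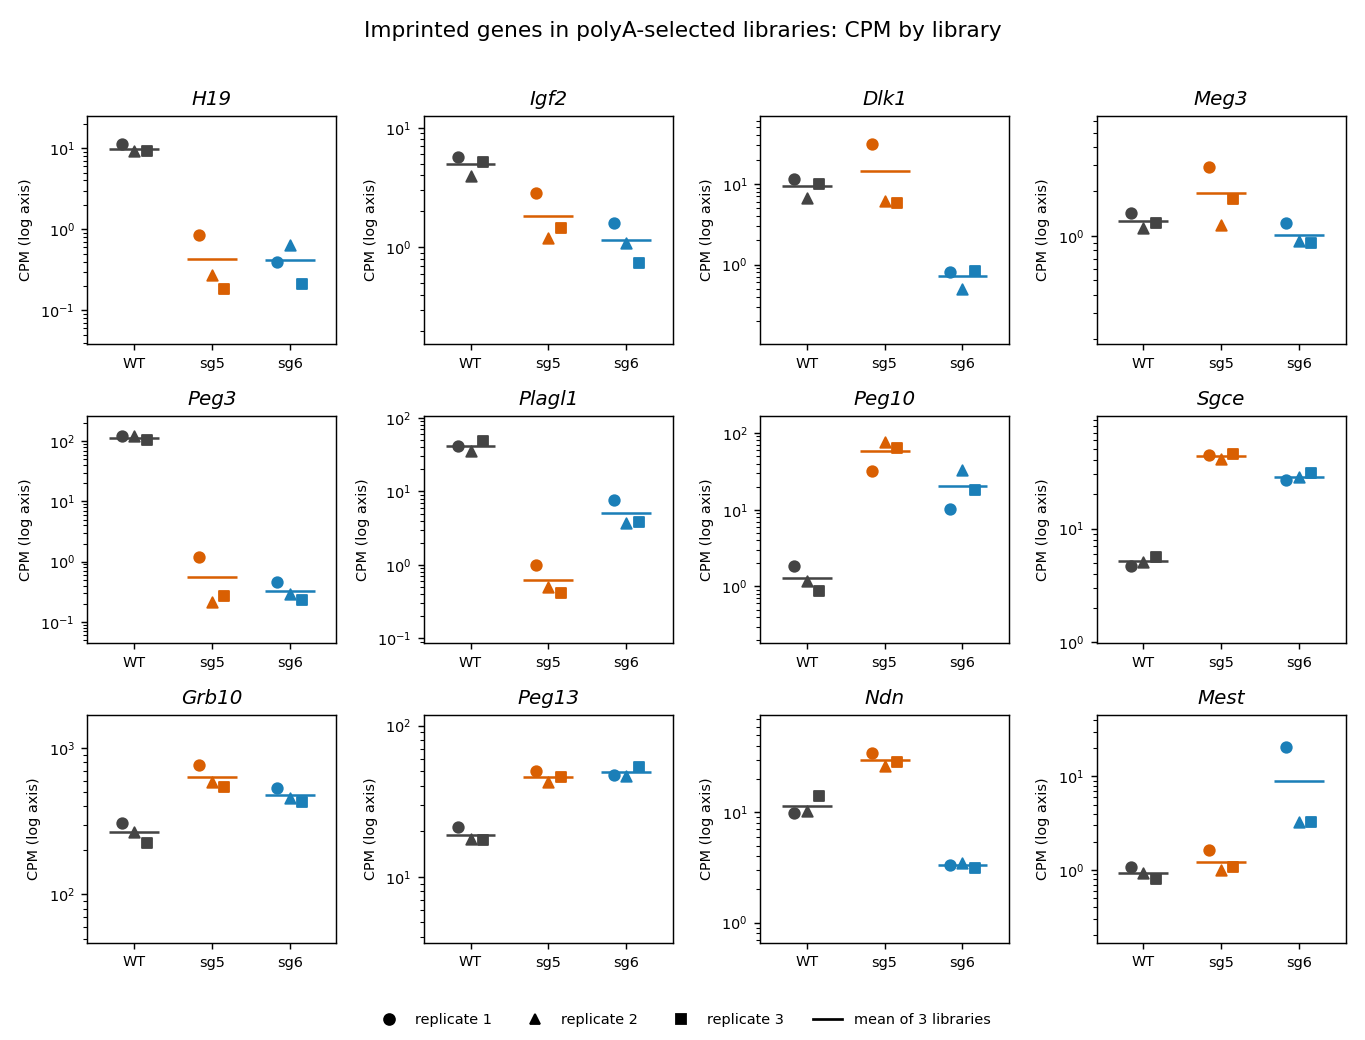
CPM on a log axis (y axis) of 12 imprinted genes in each polyA library of the WT, sg5 and sg6 lines (x axis). Point shapes are replicates and lines are means of 3 libraries. *Peg3* drops from at least 104 CPM in WT to 1.19 CPM or less in KO libraries, and *Mest* in sg6 replicate 1 (20.6 CPM) stands above the other sg6 libraries.

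*Mest*, a paternally expressed gene of the mesoderm that encodes a hydrolase-like protein, rose in sg6 only in polyA RNA, and 1 library set the size. The gene lies at Entrez 17294, chr6:30733506-30748466, plus strand. It had 1.08, 0.938 and 0.801 CPM in WT, 1.63, 0.995 and 1.07 in sg5 and 20.6, 3.29 and 3.25 in sg6. All sg6 libraries were above the other 6. The rise in sg6 was 9.71-fold (3.28 ± 0.73, adjusted p = 0.00847), and 3.48-fold without sg6 replicate 1 (1.8, adjusted p = 0.00201). The sg5 clone was at 0.40 ± 0.70 against WT (adjusted p = 0.721). Between the clones the difference of -2.88 ± 0.68 (adjusted p = 0.0456) was lost when any WT or sg5 library was left out, with an adjusted p from 0.0532 to 0.166, and was -1.41 without sg6 replicate 1.

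In rRNA-depleted RNA *Mest* was at 2.72, 1.55 and 2.76 CPM in WT, 2.3, 2.3 and 3.4 in sg5 and 7.54, 2.83 and 4.12 in sg6. The sg6 libraries were above the WT libraries without passing the test (1.04 ± 0.36, adjusted p = 0.205). *Copg2*, a coatomer subunit gene that overlaps *Mest* on the opposite strand, was not changed, at -0.04 ± 0.08 and -0.13 ± 0.09 in polyA RNA. Without a stated strand setting, reads of *Mest* and *Copg2* in the overlap cannot be told apart.

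*Plagl1*, a paternally expressed zinc finger gene on chromosome 10 that acts in a network of imprinted growth genes, fell in both clones and by more in sg5. It lies at Entrez 22634, chr10:13090832-13131694, plus strand. Its polyA level was 42.1, 35.4 and 49.1 CPM in WT, 0.979, 0.493 and 0.407 in sg5 and 7.57, 3.68 and 3.87 in sg6. The 3 lines did not overlap. The fall was 67.7-fold in sg5 (-6.08 ± 0.42, adjusted p = 1.95e-05) and 8.34-fold in sg6 (-3.06 ± 0.37, adjusted p = 0.000339). The clones differed by -3.02 ± 0.38 (adjusted p = 0.00195).

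rRNA-depleted libraries held 179, 181 and 210 *Plagl1* counts in WT, 3, 0 and 4 in sg5 and 17, 27 and 26 in sg6. The log2 fold changes were -6.03 ± 0.47 in sg5 (adjusted p = 7.49e-06) and -2.81 ± 0.35 in sg6 (adjusted p = 0.000385). The clones again differed by -3.22 ± 0.50 (adjusted p = 0.00872).

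*Grb10* encodes an adaptor protein that restrains insulin and IGF receptor signalling and is maternally expressed outside neurons. The gene lies at Entrez 14783, chr11:11930499-12037428, minus strand. It had 308, 267 and 224 CPM in WT, 768, 584 and 546 in sg5 and 539, 459.9 and 429.9 in sg6 (polyA). All KO libraries were above WT. The sg5 clone passed at 2.38-fold (1.25 ± 0.16, adjusted p = 0.000647), and sg6 passed on p but not on size (0.84 ± 0.16, adjusted p = 0.00426). In rRNA-depleted RNA, with 257, 218 and 189.7 CPM in WT, 538, 575 and 510.3 in sg5 and 470.3, 423 and 429 in sg6, the same held for sg5 (1.29 ± 0.14, adjusted p = 0.000133). The sg6 value of 0.99 ± 0.14 (adjusted p = 0.00106) sat at the fold threshold and stayed below it or missed the p threshold under 8 of its 21 alternative settings, passing under the others, the replicate block among them (adjusted p = 0.000289). The clones did not pass the test against each other (0.41 ± 0.16, adjusted p = 0.228, polyA).

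*Peg13*, a paternally expressed noncoding RNA on chromosome 15 that lies within *Trappc9* on the same strand (Entrez 353342, chr15:72805602-72810324, minus strand), had 21.3, 17.7 and 17.5 CPM in WT, 49.9, 42.2 and 45.9 in sg5 and 46.8, 46.7 and 53.4 in sg6 (polyA). The KO libraries were all above WT and the clones overlapped. *Peg13* rose 2.44-fold in sg5 (1.29 ± 0.11, adjusted p = 5.53e-05) and 2.6-fold in sg6 (1.38 ± 0.11, adjusted p = 3.36e-05). rRNA-depleted libraries had 7.66, 5.97 and 5.43 CPM in WT, 25.4, 19.1 and 15.6 in sg5 and 19.3, 15.4 and 16.2 in sg6. These were rises of 1.66 ± 0.22 (adjusted p = 0.000514) and 1.42 ± 0.22 (adjusted p = 0.00192).

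**Figure D3:**
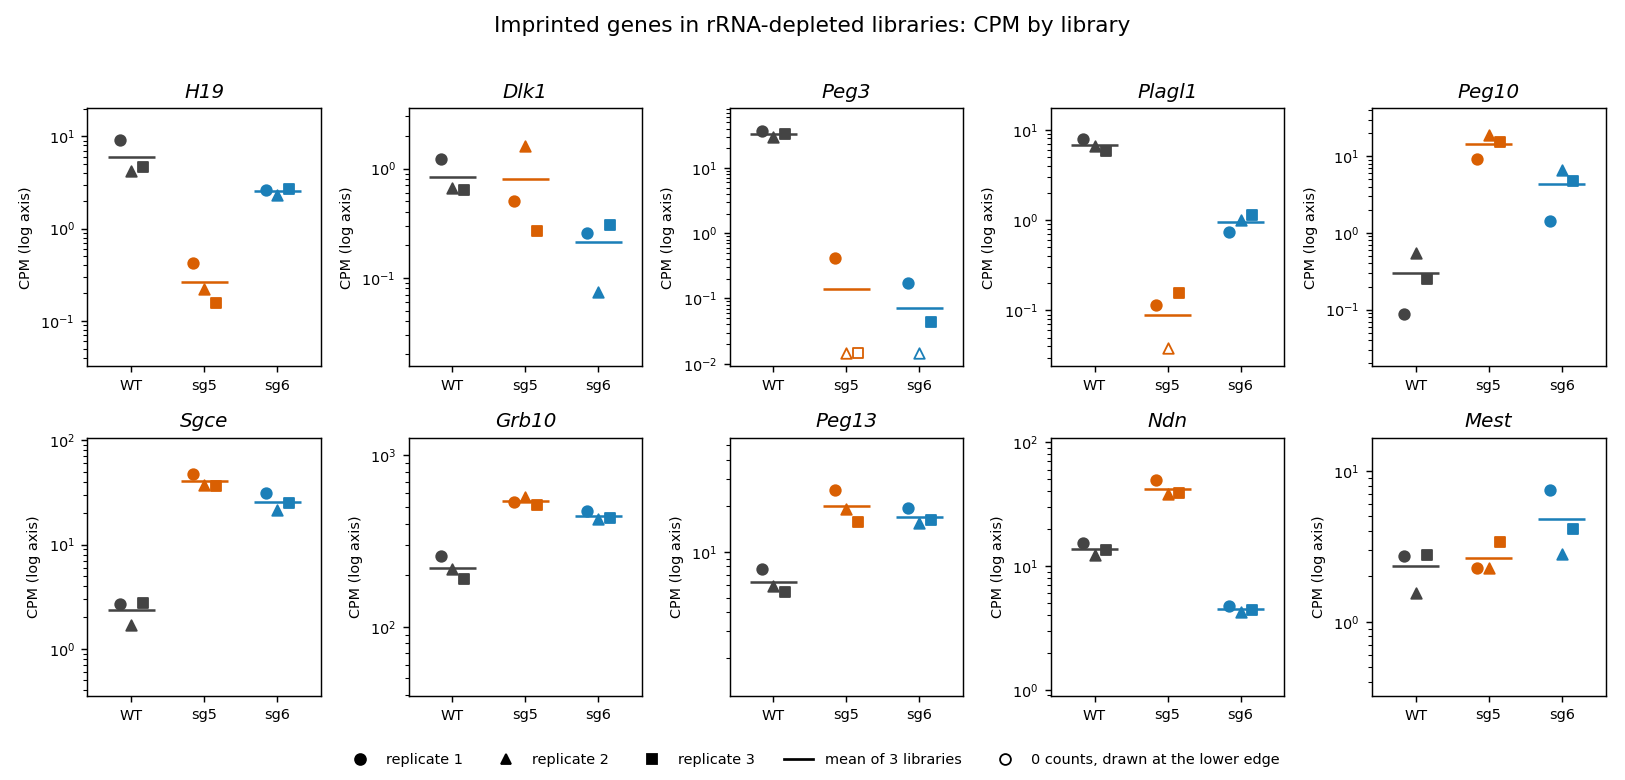
CPM on a log axis (y axis) of 10 imprinted genes in each rRNA-depleted library of the WT, sg5 and sg6 lines (x axis), with open points at the lower edge for libraries with 0 counts and lines for means of 3 libraries. *H19* in sg6 (2.31 to 2.67 CPM) lies between WT and sg5, and *Ndn* is above WT in sg5 and below it in sg6.

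The remaining tested genes, among them the Igf2r-Airn pair, were not called in either clone in either kind of library. *Igf2r*, the maternally expressed receptor that clears IGF2, was at -0.10 ± 0.10 in both clones, and *Airn*, the paternal noncoding RNA that overlaps it on the opposite strand, at -0.30 ± 0.27 and -0.43 ± 0.27 (polyA). *Gnas*, which encodes the stimulatory G protein alpha subunit and has maternal, paternal and biallelic transcripts that the counts do not separate, was higher than WT in all KO libraries by 0.48 ± 0.08 (adjusted p = 0.00237) and 0.55 ± 0.08 (adjusted p = 0.000937), below the fold threshold. The splicing factor relative *Zrsr1* varied within each line in polyA RNA, with 4220 to 74574 counts for WT libraries, 60406 to 134190 for sg5 libraries and 13116 to 45635 for sg6 libraries, and held 218 to 654 counts in the rRNA-depleted libraries. These counts are not scaled to the library totals, which differed between the polyA libraries. The fitted changes of *Zrsr1* in polyA RNA were 0.36 ± 0.72 in sg5 (adjusted p = 0.752) and 0.46 ± 0.72 in sg6 (adjusted p = 0.671). *Zrsr1* lies inside *Commd1* on the opposite strand. *Nnat*, *Impact*, *Inpp5f* and *Rasgrf1* had log2 fold changes from -0.81 to 0.63 in polyA RNA, and *Zdbf2* had at most 2 counts in any library.

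**Figure D4:**
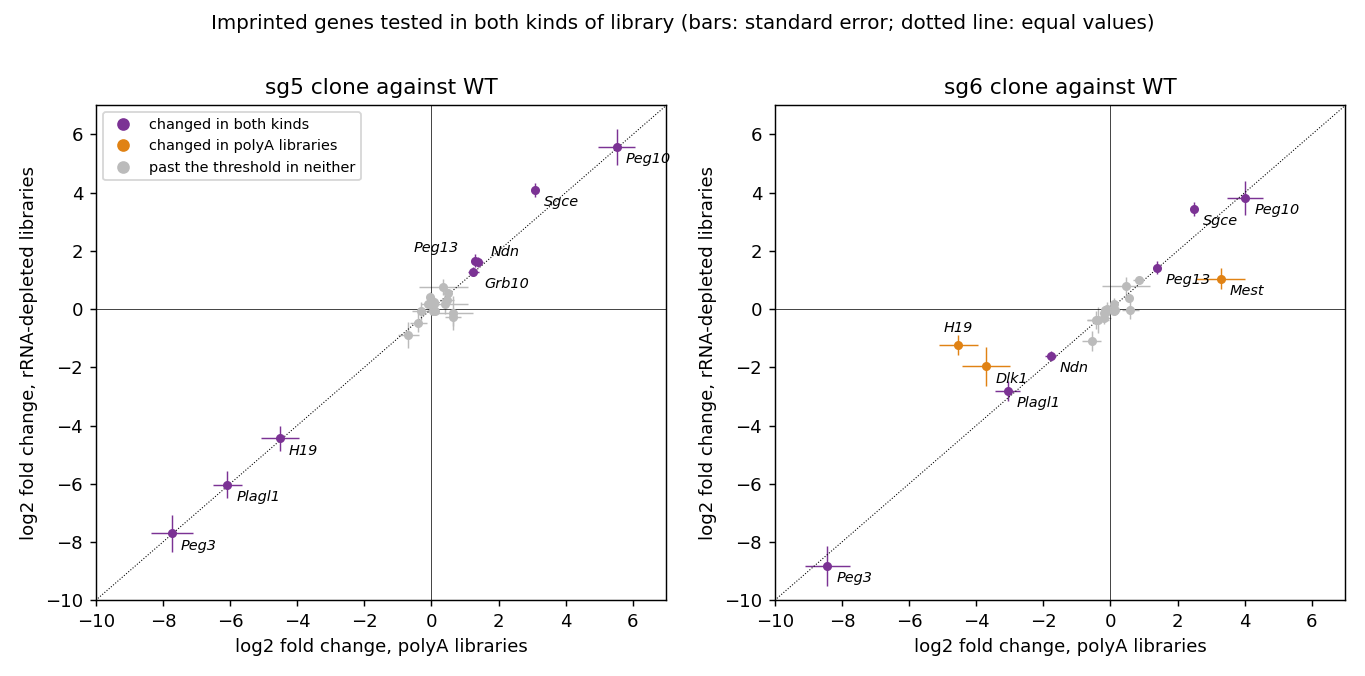
Log2 fold change against WT in polyA libraries (x axis) and in rRNA-depleted libraries (y axis) of the 24 imprinted genes tested in both, for sg5 (left) and sg6 (right). Bars are SE and the dotted line marks equal values. In sg5 the 8 called genes are called in both kinds, with *Sgce* above the line (3.08 and 4.09), whereas in sg6 *H19* (-4.54 and -1.24), *Dlk1* (-3.71 and -1.97) and *Mest* (3.28 and 1.04) are called in polyA libraries alone.

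Between the clones themselves, 4 of 30 genes differed in polyA RNA, where 2.61% of all tested genes did (1.36% higher and 1.25% lower in sg5). In rRNA-depleted RNA 3 of 24 did, and 1.48% of all tested genes (0.556% higher and 0.925% lower in sg5). *Ndn* and *Plagl1* were in both lists, with *Ndn* higher and *Plagl1* lower in the sg5 clone. *Dlk1* (higher in sg5) and *Mest* (lower in sg5) were in the polyA list alone and *H19* (lower in sg5) in the rRNA-depleted list alone. *Peg10* was higher in sg5 than in sg6 by 1.51 ± 0.44 in polyA RNA and 1.75 ± 0.47 in rRNA-depleted RNA without passing (adjusted p = 0.0990 and 0.220). In the fit with a replicate block, which pairs the libraries of the clones by number, *Peg10* was called in both kinds, at 1.56 (adjusted p = 0.0208) in polyA and 1.92 (adjusted p = 0.00245) in rRNA-depleted RNA. *Rian* was then also called higher in sg5 than in sg6, at 3.47 (adjusted p = 0.0143) against 3.43 ± 1.02 (adjusted p = 0.105) without the block (polyA).

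A further list of 39 imprinted genes from the same clusters and other loci was looked at beside the 38, with 1 of them, *Zfp264*, in neither table. In polyA RNA 29 were tested and 6 changed in both clones, and in rRNA-depleted RNA 25 were tested and 5 changed in both, against the backgrounds of 7.66% and 3.98% given above. *Pon2*, a lactonase gene near *Peg10*, had 11.6 ± 2.90 CPM in the WT line, 36.8 ± 3.73 CPM in sg5 cells and 40.6 ± 6.28 CPM in sg6 cells (SD, n = 3, polyA), and rose by 1.67 ± 0.19 (adjusted p = 0.000285) and 1.81 ± 0.19 (adjusted p = 0.000159). *Sfmbt2*, a Polycomb group gene of the placenta, had 9.16 ± 0.989 CPM in the WT line, 2.8 ± 0.222 CPM in sg5 cells and 2.63 ± 0.215 CPM in sg6 cells, a log2 fold change of -1.71 ± 0.14 in sg5 (adjusted p = 4.61e-05) and -1.8 ± 0.14 in sg6 (adjusted p = 3.38e-05). *Tnfrsf23*, a decoy receptor gene near the Kcnq1ot1 cluster, rose by 1.70 ± 0.33 (adjusted p = 0.00531) and 1.26 ± 0.33 (adjusted p = 0.0179). These 3 were also called in both clones in rRNA-depleted RNA.

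The other 3 genes of that list changed in both clones in polyA RNA were not called in both clones in rRNA-depleted RNA. *Slc22a2*, an organic cation transporter gene beside *Igf2r*, rose by 1.47 ± 0.18 in sg5 and 2.08 ± 0.18 in sg6 (adjusted p = 0.000461 and 6.22e-05). *Th*, the tyrosine hydroxylase gene near *Igf2*, rose by 1.52 ± 0.28 and 1.34 ± 0.30 (adjusted p = 0.00424 and 0.00925) at levels below 0.5 CPM. *Smoc1*, a matrix protein gene, fell by 2.64 ± 0.50 and 2.2 ± 0.49 on the log2 scale (adjusted p = 0.00449 and 0.00909).

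Genes that set, keep or read imprints were listed as well, 26 in all, of which 24 were tested in each kind of library. *Atrx* was the only one of them called, lower in both clones in both kinds. *Zfp57* was at 24.7 ± 5.85 CPM in the WT line, 24.5 ± 0.721 CPM in sg5 cells and 25.3 ± 1.46 CPM in sg6 cells (SD, n = 3, polyA), with log2 fold changes of -0.01 and 0.04. Its partner *Trim28*, the maintenance methyltransferase gene *Dnmt1* and the chaperone gene *Daxx* were at -0.04, -0.20 and -0.07 in sg5 and -0.04, -0.47 and -0.02 in sg6 in polyA RNA. Over the list without *Atrx*, log2 fold changes in polyA RNA ran from -0.95 (*Tet1*) to 0.51 (*Arid4b*). Below the fold threshold, the histone H3.3 gene *H3f3b* was lower in both clones (-0.61 ± 0.10, adjusted p = 0.00211, and -0.69 ± 0.10, adjusted p = 0.000955, polyA). *Yy1* was higher in both (0.50 ± 0.07, adjusted p = 0.000850, and 0.48 ± 0.07, adjusted p = 0.000928, polyA). Neither gene had an adjusted p below 0.05 in rRNA-depleted RNA.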

How the data were processed

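RNA of *Atrx* WT, sg5 and sg6 cells was measured in 3 polyA-selected and 3 rRNA-depleted libraries per line. For polyA libraries the authors trimmed reads with Rfastp, quantified transcripts with Salmon (version 0.8.2 per the labels) on mm10 and deposited expected counts per gene made with tximport, which were already whole numbers and were rounded as a safeguard. The rRNA-depleted table holds raw counts of genes and transposable element loci that the authors made with TElocal from STAR alignments. The strand setting was not given in the sources used here. Every sample column was mapped to a library by its label, with 0 columns left unmapped.

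Each table was filtered with filterByExpr (minimum count 10, minimum total 15), scaled by TMM and tested with edgeR 4.0.16 in R 4.3.3 (quasi-likelihood test, 9 libraries in a fit, no block), with Benjamini-Hochberg adjustment over all features tested. For the rRNA-depleted table these included the transposable element loci. A gene was called changed at an absolute log2 fold change above 1 and an adjusted p below 0.05. Every adjusted p in the text comes from these fits unless another fit is named. PolyA and rRNA-depleted tables were normalized separately and were not tested against each other. Members and lists were chosen with earlier results of these data known. Values in every polyA library are given for *H19*, *Igf2*, *Meg3*, *Dlk1* and each member changed in a clone. In the other lists, at most 6 genes changed in both clones are given per list, by group means, ranges or log2 fold changes. The titles number the replicates. Deviations from the group means of same-numbered libraries correlated above 0.1 in all 3 pairs of sg5 with sg6 in both kinds (0.277 to 0.373 in polyA, 0.174 to 0.638 in rRNA-depleted RNA) and of WT with sg6 in rRNA-depleted RNA (0.114 to 0.544), so blocked values are given there where they change a call. Over all lines in rRNA-depleted RNA, same-numbered pairs ran from -0.229 to 0.638 (mean 0.294). Differently numbered pairs ran from -0.605 to 0.555 (mean -0.145), the highest being sg5 replicate 3 with sg6 replicate 2. The ranges overlap, so a pairing by number is not established there, and the blocked calls depend on it. Alternatives were RLE size factors, DESeq2 1.42.0, other filters and thresholds, fits of the 2 groups compared, a replicate block, thinning, chromosome centring, genes only and leaving out each library. The tests were checked on counts simulated with the spread fitted to these libraries. The simulation held no effect of replicate number and no line effect beyond the changes put in. It therefore cannot show how the tests behave where lines differ for other reasons. Counting error limits genes with few counts.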

Additional observations from a re-analysis of the deposited data

Results flagged for a closer look

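The following imprinted genes differed between the KO clones, and in each the difference between sg5 and sg6 was itself tested in the 9-library edgeR fit. In polyA RNA, *Dlk1* was higher in sg5 by 4.33 ± 0.71 on the log2 scale (adjusted p = 0.00834) and *Ndn* by 3.17 ± 0.17 (adjusted p = 1.36e-05). *Mest* was lower in sg5, at -2.88 ± 0.68 (adjusted p = 0.0456), and so was *Plagl1*, at -3.02 ± 0.38 (adjusted p = 0.00195). In rRNA-depleted RNA the values were -3.21 ± 0.43 for *H19* (adjusted p = 0.00315), 3.23 ± 0.18 for *Ndn* (adjusted p = 5.94e-07) and -3.22 ± 0.50 for *Plagl1* (adjusted p = 0.00872). Each clone is 1 line, so that a difference between the guides cannot be told apart from a difference between clones.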

How the results depend on the processing

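Over the alternatives run, 157 of the recomputed counts of changed imprinted genes stayed within 1.5 times of the value given and 7 were lower. In polyA RNA, sg5 against WT had 5 changed genes with a log2 fold change beyond 2 at an adjusted p below 0.01, and 5 with glmTreat. In rRNA-depleted RNA, requiring 10 counts in every library left 4 in sg5, 3 in sg6, 1 between the clones and 2 in both clones, and the stricter threshold left 5 in sg5. That filter removes genes that fell to near 0, such as *Peg3*. Leaving out 1 library gave 9 to 10 genes in sg5, 10 to 11 in sg6, 3 to 4 between the clones and 7 to 8 in both clones (polyA), and 8, 6 to 8, 3 and 5 to 7 (rRNA-depleted).

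Of the values of single genes, 1258 kept direction and call, 35 lost and 24 gained the call and 13 reversed. No reversed value was called in the fit given. The value of *H19* between the clones in polyA RNA was -0.088 with the replicate block and from -0.85 to 0.47 with a library left out, *Peg3* from -0.48 to 1.14, and *Peg13* 0.027 with chromosome centring. *Dlk1* in sg5 ran from -0.66 to 1.0 in polyA and from -1.06 to 0.31 in rRNA-depleted RNA, and *Mest* in sg5 from -0.025 to 0.36 in the latter. *Peg3* between the clones in rRNA-depleted RNA ran from -3.92 to 2.69, where fitted values rest on libraries at 0. The cause was not tested.

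Requiring a log2 fold change beyond 2 at an adjusted p below 0.01 drops by construction the calls of *Grb10* in sg5 and of *Ndn* and *Peg13* in both clones, in both kinds, and in polyA RNA also *Igf2* in sg5 and *Mest* between the clones. With glmTreat, *Grb10* in sg5 (adjusted p = 0.347 in polyA and 0.336 in rRNA-depleted RNA), *Peg13* in sg5 (0.0582 and 0.0651), *Peg13* in sg6 in rRNA-depleted RNA (0.421), *Ndn* in sg5 in polyA RNA (0.0783), *Igf2* in sg5 (0.581), *Mest* in sg6 (0.0547) and between the clones (0.348) and *Plagl1* between the clones in rRNA-depleted RNA (0.0716) were lost. With only the 2 groups fitted, *Plagl1* between the clones in rRNA-depleted RNA (adjusted p = 0.0976) and *Mest* between the clones (0.0883) were lost, the latter also with 10 counts in every library (0.0524) and after thinning (0.0507). Calls of *Igf2*, *Dlk1* and *Mest* lost without a single library stand beside those genes. DESeq2 gave no adjusted p for *Mest* in polyA RNA. With the replicate block, 10, 10 and 6 genes were changed in sg5, in sg6 and between the clones (polyA), and 8, 9 and 4 in rRNA-depleted RNA. In the contrasts where all same-numbered pairs correlated above 0.1, the block changed the calls of *Peg10*, *Rian*, *H19*, *Grb10* and *Mkrn3*. These are given beside the genes, and it changed no other calls in these contrasts. In the others, where a pair correlated at as little as 0.0257 (polyA) and -0.229 (rRNA-depleted), the block added *Rian* in sg5 (adjusted p = 0.0188, polyA). After thinning every polyA library to the smallest total, 9, 10 and 3 genes were changed.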

Other observations

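Genes outside the first list of imprinted genes but within 500 kb of the 9 changed loci were counted after the values had been seen. Genes of the further list of imprinted genes were not left out, and *Th*, *Cobl*, *Begain* and *Pon3* are among these neighbours. *Peg3os*, the antisense gene of *Peg3*, was also kept. The shares given here are therefore not those of non-imprinted genes alone. In polyA RNA 12 of 63 tested neighbours (19%) were changed in both clones, beside 7.66% of all tested genes, and in rRNA-depleted RNA 5 of 52 (9.62%), beside 3.98%. The H19 and Igf2 locus held 5 of the 12. There *Th* rose, and *Tnnt3* and *Tnni2*, which encode troponins of fast skeletal muscle, *Syt8* and *Ifitm10* fell. *Syt8* and *Ifitm10* were also called lower in both clones in rRNA-depleted RNA. Both tested neighbours of *Ndn*, the noncoding RNA genes *A330076H08Rik* and *A230057D06Rik*, were called lower in both clones in polyA RNA, at -5.96 ± 0.47 and -4.46 ± 0.49 in sg5, where *Ndn* rose, and at -5.65 ± 0.53 and -4.72 ± 0.57 in sg6. *A330076H08Rik* was also called lower in both clones in rRNA-depleted RNA. *Phactr2* beside *Plagl1* was at -4.34 ± 0.33 in sg5 (adjusted p = 3.12e-05) and -1.67 ± 0.29 in sg6 (adjusted p = 0.00252), and the clones differed by -2.67 ± 0.31 (adjusted p = 0.00120, polyA). In rRNA-depleted RNA *Phactr2* was called in sg5 (-5.67 ± 0.82) and not in sg6 (-1.65 ± 0.52, adjusted p = 0.142). *Olfr1349* and *Zfp773* near *Peg3* and *1700042O10Rik* and *4930512M02Rik* near *Grb10* were called lower in both clones in polyA RNA, and *Cobl* near *Grb10* higher in both in rRNA-depleted RNA. Beside *Peg3*, its antisense gene *Peg3os* was called lower in both clones in rRNA-depleted RNA. No tested neighbour within 500 kb of *Dlk1*, *Peg13*, *Mest* or the Peg10-Sgce locus was changed in both clones in either kind of library. *Pon3* near Peg10-Sgce was called lower in sg6 alone and *Cpa1* near *Mest* higher in sg5 alone, each in both kinds. *Begain* near *Dlk1* was called lower in sg6 alone in polyA RNA (-1.51 ± 0.30, adjusted p = 0.00457). The clones differed there by 1.41 ± 0.28 (adjusted p = 0.0216). *Pon2*, described above as near *Peg10* and called higher in both clones, lies beyond 500 kb and was not counted here. These counts carry no test, and neighbouring genes are not independent of each other.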
